A study of Homo sapiens with 10 samples.

Results

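The human tRNA tables of this study held 631 rows, and 42 of them were asparagine tRNA rows, chosen by name alone as those starting with tRNA.Asn. once the species prefix was removed, with rows of an nm or nmt prefix left out. Of the 42 rows, 40 had the anticodon GTT and 2 the anticodon ATT. 29 rows carried a gene number and 13 were named by a chromosome and a running number. The libraries were made by iCLIP, a method that joins RNA to a bound protein with ultraviolet light in living cells and sequences what comes down with the protein. The protein was PUS7 with a FLAG tag, expressed in PUS7 knockout cells. There were 2 libraries of H9 embryonic stem cells that were PUS7KO with FlagPUS7 and 2 of H9 PUS7KO cells, all at passages 40 to 45. There were 3 libraries of HEK 293T kidney cells that were PUS7KO with FlagPUS7 and 3 of HEK 293T PUS7KO cells, all at passages 20 to 25. All cells, those with the tagged enzyme included, lacked their own PUS7. The knockout cells carried no tagged protein and serve as the background of the anti-FLAG pull-down. The labels give 2 plates for each replicate, but not whether each knockout is a single clone, which promoter drives the tagged enzyme or whether replicates were separate cultures, so that each p-value reflects no more than library-to-library spread, which may be technical.

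Asparagine tRNA carries asparagine to the ribosome and reads its codons with an anticodon that starts with guanosine. In the mature tRNA this guanosine is replaced by queuosine, a modification that asparagine tRNA shares with the aspartate, histidine and tyrosine tRNAs. The human genome holds many asparagine tRNA genes, a large part of them in repeated segments of chromosome 1, and many of them are near copies of each other. PUS7 turns uridine into pseudouridine in tRNA, in tRNA fragments and in mRNA, and the title of the study concerns tRNA fragments in stem cells.

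Values in the tables are level numbers and not counts, since every whole number from 1 to the highest occurs in each of the 10 tables. A row is therefore described only as detected, read as at least 1 read, or as not detected. Depth is unknown, and no amounts can be given. The first H9 knockout table had 6 distinct values and was read as holding no tRNA reads at all. It served to sort the rows into the classes by which a level was read as no reads in the other tables, so that its own 0 is a reading of the table and not a test. The other 9 tables had between 133 and 479 detected rows. Differences in shares, and the row tests of the named patterns, are also given without the first H9 knockout library.

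Of the 42 rows, 15 matched a tRNA gene and 1 matched a pseudogene in RefSeq on the build GRCh38.p14, with coordinates that count from 1. Of the 15 genes, 11 lie on chromosome 1, and 7 of these lie between positions 143735920 and 149740321. These 7 are TRN-GTT6-1, TRN-GTT3-1, TRN-GTT10-1, TRN-GTT9-1, TRN-GTT9-2, TRN-GTT2-1 and TRN-GTT8-1. The 4 genes on other chromosomes are TRN-GTT2-3 on chromosome 10 (22229509 to 22229582), TRN-GTT2-4 on chromosome 13 (30673964 to 30674037), TRN-GTT2-5 on chromosome 17 (38751781 to 38751854) and TRN-GTT2-6 on chromosome 19 (1383563 to 1383636). The other 26 rows had no match by name and are given here without a position.

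FLAG-PUS7 libraries held most asparagine tRNA rows, and knockout libraries held at most 15 of the 42. In H9, FLAG-PUS7 libraries held 35 and 33 of the 42 rows, against 0 and 15 in the knockout. In 293T, 30, 33 and 27 rows were detected with FLAG-PUS7, against 15, 12 and 12 in the knockout. These numbers of rows did not overlap between FLAG-PUS7 and knockout libraries. The same held over all 631 rows, with 458 to 479 detected with FLAG-PUS7 and at most 232 in the knockout. The share of rows detected averaged 71.4% ± 7.14 with FLAG-PUS7 and 31.0% ± 4.12 in the knockout in 293T (SD, n = 3 each), a difference of 40.5 percentage points. In H9 it averaged 81.0% ± 3.37 with FLAG-PUS7 and 17.9% ± 25.3 in the knockout (SD, n = 2 each), a difference of 63.1 points. It was 45.2 points with knockout replicate 1 left out. For all 631 rows the difference was 47.6 points in 293T, above that of asparagine rows, and 57.0 points in H9, below it. With both lines weighted equally the difference was 51.8 points for asparagine rows, beside 52.3 points for all rows. With H9 knockout replicate 1 left out it was 42.9 points, beside 43.1 points for all rows. If only the lowest level in a table is read as no reads, it was 20.2 points, beside 14.3 points for all rows. Among the asparagine rows, 0 were seen in the knockout alone, as among all rows.

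**Figure D1:**
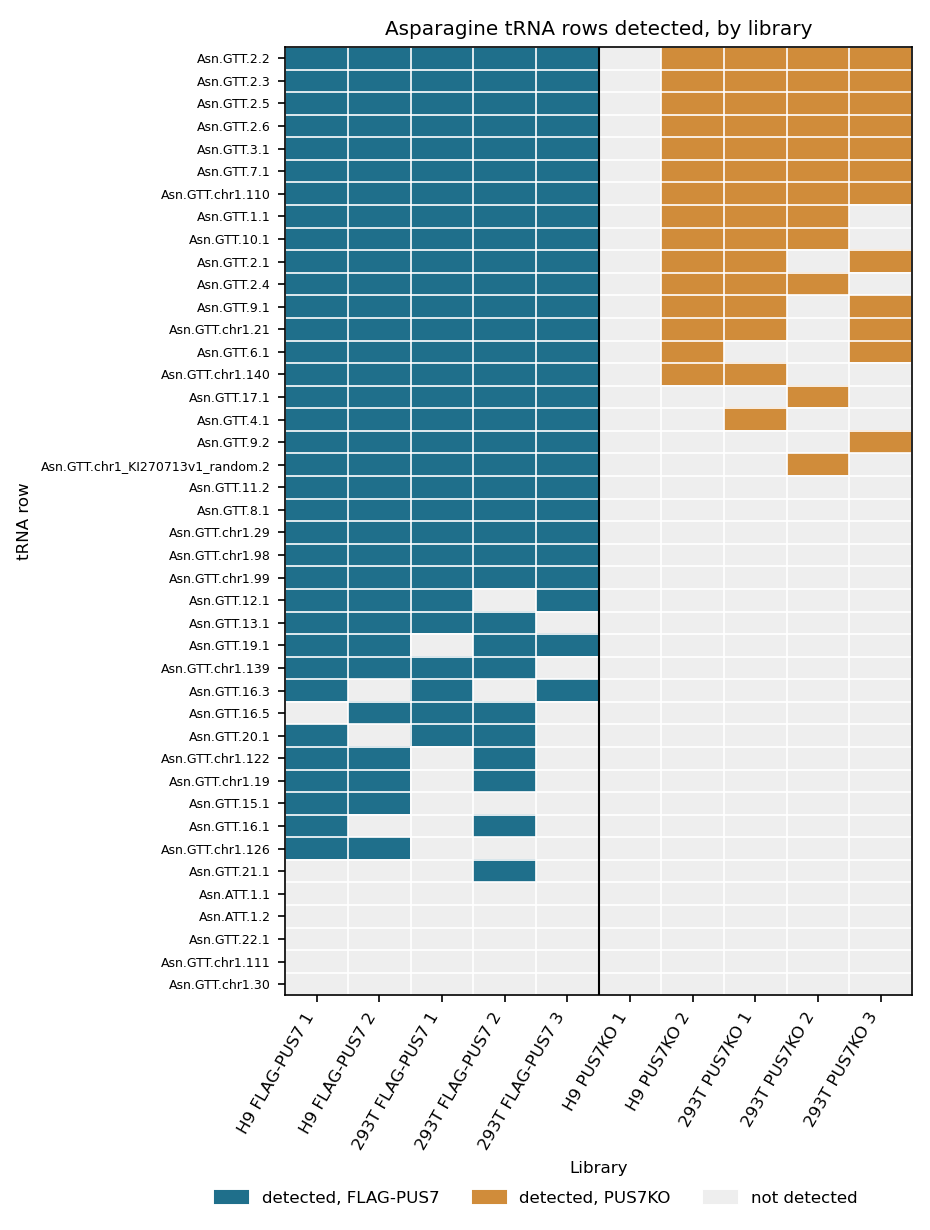
Detection of each of the 42 asparagine tRNA rows (down) in each of the 10 libraries (across), with FLAG-PUS7 libraries left of the black line in blue, PUS7KO libraries right of it in orange, and grey for rows not detected. 24 rows are filled in all 5 FLAG-PUS7 libraries, 5 of these are empty in every knockout library, and 5 rows at the bottom are empty throughout.

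**Figure D2:**
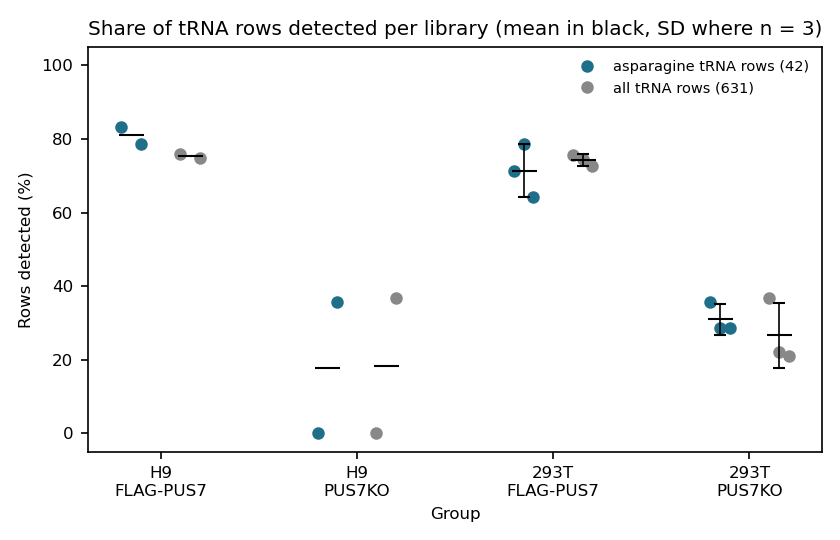
Share of rows detected (%) in each library by group, for the 42 asparagine tRNA rows (blue) and all 631 tRNA rows (grey), with the group mean as a black bar and the SD where n = 3. The FLAG-PUS7 libraries lie between 64.3% and 83.3% for asparagine rows, all above the knockout libraries, which reach at most 35.7%.

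A row with at least 1 detection in any library could be tested, which left 37 of the 42 asparagine rows and 513 of all rows. The exact permutation test, two-sided and run row by row, used the 120 ways to place the FLAG-PUS7 label inside the lines, with Benjamini-Hochberg adjustment over the 513 rows. None of the 37 asparagine rows passed an adjusted p of 0.05, and 0% of the 513 rows did. The smallest p that this test can give is 0.0167, and at least 172 rows would have to reach it for any to pass, whereas 128 did. At an unadjusted p under 0.05 there were 5 asparagine rows, 13.5% of the 37, beside 25% of all rows tested.

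These 5 rows were the asparagine rows detected in every FLAG-PUS7 library and in no knockout library, a pattern that 25% of all 513 rows showed. They were tRNA.Asn.GTT.8.1, tRNA.Asn.GTT.11.2, tRNA.Asn.GTT.chr1.29, tRNA.Asn.GTT.chr1.98 and tRNA.Asn.GTT.chr1.99. Each was present in 2 of 2 H9 and 3 of 3 293T libraries with FLAG-PUS7, and in 0 of 2 H9 and 0 of 3 293T knockout libraries. Each differed by 100 points (exact permutation p = 0.0167, adjusted p = 0.0668), and the difference and both p-values were the same with H9 knockout replicate 1 left out, over 60 assignments. Among them only GTT.8.1 matched a RefSeq gene, TRN-GTT8-1 on chromosome 1 (149740248 to 149740321).

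At the other end, 7 asparagine rows were detected in every FLAG-PUS7 library and in each of the 4 knockout libraries that held any tRNA row. This was 18.9% of the 37 rows, beside 13.8% of all rows tested. The 7 were GTT.2.2, GTT.2.3, GTT.2.5, GTT.2.6, GTT.3.1, GTT.7.1 and GTT.chr1.110. Each differed by 25 points (exact permutation p = 1, adjusted p = 1), and by 0 points with H9 knockout replicate 1 left out. TRN-GTT3-1 lies on chromosome 1 at 144419267 to 144419340 and TRN-GTT7-1 at 120844262 to 120844335.

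Of the 24 asparagine rows in every FLAG-PUS7 library, 5 and 7 lay at these ends. Over all rows tested, these were 128 and 71 of 425. Between the ends lay 12 asparagine rows that every FLAG-PUS7 library held and that 1 to 3 knockout libraries held. 6 of them, GTT.1.1, GTT.10.1, GTT.2.1, GTT.2.4, GTT.9.1 and GTT.chr1.21, were in 3 knockout libraries. All 6 were in the second H9 and the first 293T knockout library, and each was in 1 of the 2 other 293T knockouts. They differed by 41.7 points (exact permutation p = 0.5, adjusted p = 0.617), and by 16.7 points with H9 knockout replicate 1 left out (exact permutation p = 1). GTT.6.1 was in the second H9 and the third 293T knockout library, and GTT.chr1.140 in the second H9 and the first 293T knockout library, a difference of 58.3 points for each (exact permutation p = 0.2, adjusted p = 0.318), or 33.3 points with H9 knockout replicate 1 left out (exact permutation p = 0.4, adjusted p = 0.618). The other 4 rows were in a single knockout library, in each case one of 293T. GTT.4.1 was in the first, GTT.17.1 and GTT.chr1_KI270713v1_random.2 in the second, and GTT.9.2 in the third. They differed by 83.3 points (exact permutation p = 0.0667, adjusted p = 0.142), also with H9 knockout replicate 1 left out (adjusted p = 0.164).

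All 5 FLAG-PUS7 libraries together held 24 of the 37 asparagine rows, or 64.9%, beside 82.8% of all rows tested. The other 13 rows, or 35.1%, were in some but not all FLAG-PUS7 libraries, beside 17.2% of all rows tested. None of the 13 was in a knockout library and none matched a RefSeq gene. Among tested rows without a match, 13 of 22 asparagine rows (59.1%) and 56 of 92 rows of any isotype (60.9%) were partly detected, so that the share in asparagine was near that of unmatched rows in general. Unmatched rows of any isotype, here and below, include the asparagine rows, and nm and nmt rows, which the asparagine set leaves out. Among tested rows matched to a tRNA gene, 0 of 15 asparagine rows and 23 of 406 rows of any isotype (5.67%) were partly detected. GTT.12.1, GTT.13.1, GTT.19.1 and GTT.chr1.139 were in 4 FLAG-PUS7 libraries. GTT.12.1 was absent from the second 293T library, GTT.19.1 from the first, and GTT.13.1 and GTT.chr1.139 from the third. GTT.16.3, GTT.16.5, GTT.20.1, GTT.chr1.122 and GTT.chr1.19 were in 3, GTT.15.1, GTT.16.1 and GTT.chr1.126 in 2, and GTT.21.1 in 1, the second 293T library. The third 293T FLAG-PUS7 library held 3 of the 13 rows, fewer than the first with 6 and the second with 9.

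The 5 rows that no library held were GTT.22.1, GTT.chr1.111, GTT.chr1.30 and the pair with the anticodon ATT, tRNA.Asn.ATT.1.1 and tRNA.Asn.ATT.1.2. GTT.22.1 is the row that matched a pseudogene, TRN-GTT22-1 on chromosome 1 (143717291 to 143717364). Undetected rows were 11.9% of the 42, beside 118 of all 631 rows and 76 of the 168 rows without a RefSeq match. Every detected asparagine row thus had the anticodon GTT. As the ATT rows were only 2, both without a RefSeq match, nothing about the anticodon can be read from this.

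The 15 rows matched to RefSeq tRNA genes were found more often than the 26 unmatched rows, a comparison with no test. All 15 were detected in each of the 5 FLAG-PUS7 libraries (100%), where the 408 rows matched to tRNA genes of any isotype ranged from 97.1% to 97.8%. In the knockout, 0% and 80% of the 15 were detected in H9, and 80%, 60% and 66.7% in 293T. Among all 408 matched rows, the knockout libraries held 0% and 53.4% in H9 and 54.2%, 32.6% and 30.4% in 293T. In the 4 knockout libraries that held tRNA reads, asparagine genes were thus detected at a higher share than tRNA genes in general. The mean difference between FLAG-PUS7 and knockout was 45.6 points for the 15 asparagine genes, beside 64.5 points for all 408. With H9 knockout replicate 1 left out, these were 25.6 and 51.2 points. Of the 26 unmatched asparagine rows, 76.9% and 69.2% were detected in H9 with FLAG-PUS7, against 0% and 11.5% in the knockout. In 293T 57.7%, 69.2% and 46.2% were detected with FLAG-PUS7, against 11.5%, 11.5% and 7.69% in the knockout. The 168 unmatched rows of any isotype were detected at 42.3% and 38.7% in H9 and 39.9%, 38.1% and 30.4% in 293T with FLAG-PUS7, below the unmatched asparagine rows in each library. The 168 include the 26 asparagine rows, and nm and nmt rows, most of them undetected, of a kind that the asparagine set leaves out. In the knockout they were detected at 0% and 7.74% in H9 and 6.55%, 3.57% and 5.36% in 293T. Matched rows were thus detected more often than unmatched rows over all isotypes too.

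In the naming of tRNA genes, copies with the same first number share their mature sequence, so that reads within it cannot be assigned to 1 copy by sequence. The labels do not say how such reads were divided. The 6 copies GTT.2.1 to GTT.2.6 were detected together, with 6 of 6 in every FLAG-PUS7 library, against 0 and 6 in the H9 and 6, 5 and 5 in the 293T knockout libraries. The copies missing were GTT.2.1 in the second and GTT.2.4 in the third 293T knockout. The pair GTT.9.1 and GTT.9.2 was complete in every FLAG-PUS7 library, whereas the knockouts held 0 and 1 of the pair in H9 and 1, 0 and 2 in 293T. The 3 copies of GTT.16 differed from library to library, with 2 and 1 of them in H9 and 2, 2 and 1 in 293T with FLAG-PUS7, and 0 in every knockout library.

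Rows were sorted into classes, called width classes in the plot by class, by their level in the first H9 knockout table, and the asparagine rows fell into classes 1 to 4. The class comes from the tables themselves and was used to read detection, so that it is not independent of it. Asparagine rows numbered 18 in class 1, 6 in class 2, 7 in class 3 and 11 in class 4. In class 4, all 11 rows were detected with FLAG-PUS7 in every library, and the knockouts held 0% and 100% of them in H9 and 100%, 81.8% and 81.8% in 293T. All 6 copies of GTT.2 and 7 of 7 rows found in all 4 knockouts with any tRNA row were in this class. Over all 86 rows of class 4 the knockouts held 0% and 88.4% in H9 and 96.5%, 66.3% and 70.9% in 293T. In class 3, the knockouts held 0% and 42.9% of the 7 asparagine rows in H9 and 42.9%, 14.3% and 28.6% in 293T, beside 0% and 66.9% in H9 and 72.9%, 36.1% and 34.9% in 293T for all rows of the class. In class 1, asparagine rows were detected at 61.1% and 50% in H9 and 38.9%, 55.6% and 22.2% in 293T with FLAG-PUS7, and at 0% in every knockout. All 248 rows of class 1 were detected at 39.5% and 36.7% in H9 and 39.5%, 36.3% and 31.0% in 293T with FLAG-PUS7, so that asparagine was higher in 3 libraries and lower in 293T replicates 1 and 3. In class 2, the knockouts held 0% and 16.7% of the 6 asparagine rows in H9 and 16.7%, 33.3% and 16.7% in 293T, beside 0% and 33.1% in H9 and 18.5%, 14.6% and 8.46% in 293T for all rows of the class. Of the 15 matched asparagine genes 9 were in class 4. There the second H9 knockout held 100% of them and the 293T knockouts 100%, 88.9% and 77.8%, beside 86.7% in H9 and 96.0%, 64.0% and 69.3% in 293T for the 75 other matched genes of the class. The 4 matched asparagine genes of class 3 were at 50% in the second H9 knockout and at 50%, 0% and 50% in 293T, beside 68.4% in H9 and 74.3%, 38.2% and 33.6% in 293T for 152 other matched genes. The part of class in the difference between asparagine and other genes was not tested.

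**Figure D3:**
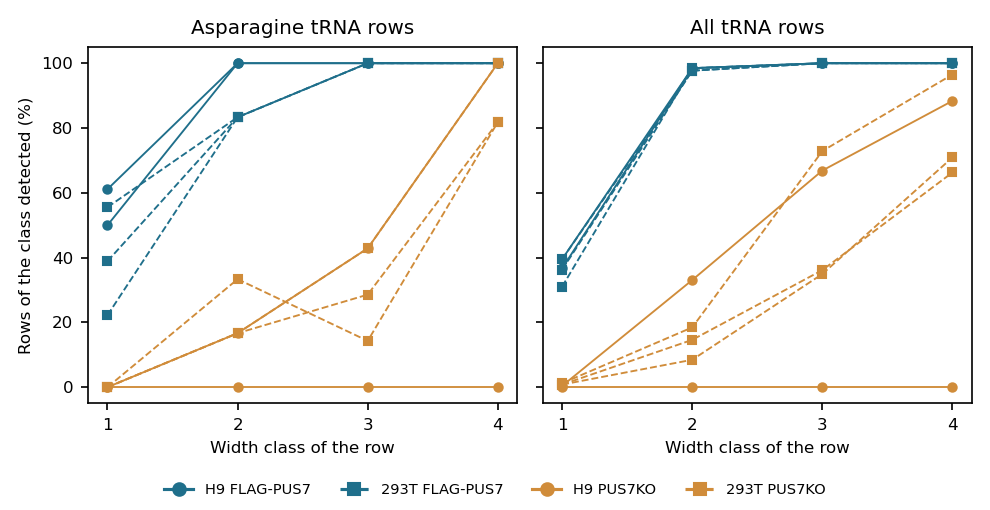
Share of rows detected (%) by width class for asparagine tRNA rows (left) and all tRNA rows (right), 1 line per library, with FLAG-PUS7 in blue, PUS7KO in orange, H9 as circles with solid lines and 293T as squares with dashed lines. In class 4 the second H9 and the 3 293T knockout libraries held 81.8% to 100% of the asparagine rows, and in class 1 they held 0%.

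The other isotypes whose tRNAs carry queuosine at the same anticodon position were set beside asparagine. Aspartate Asp-GTC had 16 rows, histidine His-GTG 10 and tyrosine Tyr-GTA 16. Detected in every FLAG-PUS7 and no knockout library were 1 of 15 tested Asp-GTC rows, 1 of 10 His-GTG rows and 5 of 12 Tyr-GTA rows, beside 5 of 37 for asparagine. Detected in every FLAG-PUS7 library and in all 4 knockouts with any tRNA row were 13 of 15 Asp-GTC, 4 of 10 His-GTG and 0 of 12 Tyr-GTA rows, beside 7 of 37 for asparagine. Among the 15 matched asparagine genes, 1 had the first of these patterns and 6 had the second. The knockouts held 0% and 87.5% of Asp-GTC rows in H9 and 81.2% in each 293T library. For His-GTG they held 0% and 90% in H9 and 80%, 40% and 50% in 293T. For Tyr-GTA they held 0% in each H9 library and 31.2%, 12.5% and 6.25% in 293T. With all 42 rows kept, asparagine was at 0% and 35.7% in H9 and 35.7%, 28.6% and 28.6% in 293T. This was below Asp-GTC and His-GTG and above Tyr-GTA in each knockout library with tRNA reads. Of these 42 rows, 26 had no RefSeq match. The 15 matched asparagine genes alone were at 0% and 80% in H9 and 80%, 60% and 66.7% in 293T. They stayed below Asp-GTC and above Tyr-GTA in each knockout library with tRNA reads. Against all His-GTG rows they were lower in H9 replicate 2, equal in 293T replicate 1 and higher in 293T replicates 2 and 3. The other isotypes were not cut to matched genes here. The His-GTG rows include tRNA.His.GTG.2.1, which had no RefSeq match and was in no knockout library. The order against His-GTG thus depended on the rows kept. None of the asparagine, Asp-GTC, His-GTG or Tyr-GTA rows passed the row-by-row test, and no test between isotypes was run. In Asp-GTC, His-GTG and Tyr-GTA, a row was in all FLAG-PUS7 libraries or in none, with 0 rows between, whereas asparagine had 13 between, all of them rows without a RefSeq match.

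**Figure D4:**
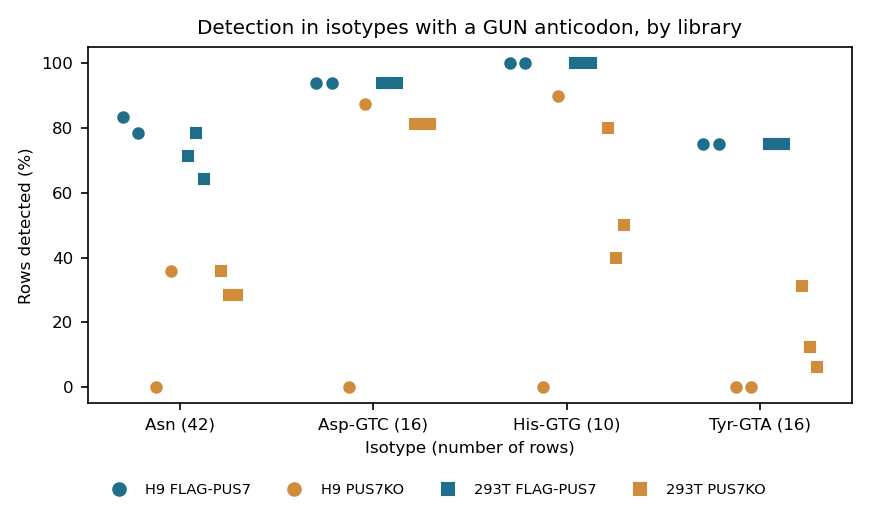
Share of rows detected (%) in each library for asparagine and the 3 other isotypes with a GUN anticodon, FLAG-PUS7 in blue and PUS7KO in orange, H9 as circles and 293T as squares. Asp-GTC, His-GTG and Tyr-GTA have the same share in all 5 FLAG-PUS7 libraries, while asparagine ranges from 64.3% to 83.3%.

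Between the lines, the H9 FLAG-PUS7 libraries held 35 and 33 asparagine rows and the 293T FLAG-PUS7 libraries 30, 33 and 27, which overlap. The mean share was 9.52 points higher in H9, beside 1.08 points for all rows. For asparagine rows it was 5.95 points higher with the third 293T library, the lowest, left out. Among rows without a RefSeq match, with all libraries kept, the gap was 15.4 points for asparagine, beside 4.37 points for all isotypes. All 24 rows that are in every FLAG-PUS7 library are common to both lines, so that the gap lay in the 13 partly detected rows, of which H9 held 11 and 9 and 293T held 6, 9 and 3. GTT.15.1 and GTT.chr1.126 were in each H9 FLAG-PUS7 library and in none of 293T. These 2 rows were 5.41% of the 37, beside 0.975% of all rows tested, or 5 rows in all. Among tested rows without a RefSeq match, 2 of 22 asparagine rows and 4 of 92 rows of any isotype had this pattern. GTT.chr1.19 and GTT.chr1.122 were in both H9 and in 1 of 3 293T FLAG-PUS7 libraries, the second. In the reverse direction, 0 asparagine rows were in each 293T FLAG-PUS7 library and in none of H9, beside 0.585% of all rows tested. For GTT.15.1 and GTT.chr1.126 the difference between FLAG-PUS7 libraries had an exact permutation p of 0.1, the smallest that 2 against 3 libraries can give (adjusted p = 1).

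Set against the knockouts, the difference between FLAG-PUS7 and knockout in the share of asparagine rows was 22.6 points more in H9 than in 293T, beside 9.32 points for all rows. It was 4.76 points with H9 knockout replicate 1 left out and 40.5 points with replicate 2 left out, so that its size rested on which H9 knockout was kept. With replicate 1 left out the value for all rows turned to -9.06 points, and that of the 15 matched asparagine genes to -11.1 points, against 28.9 points with it. The 408 matched rows of any isotype also turned, to -14.3 points, against 12.4 points with it. Row by row, the difference in effect between the lines was tested by permuting line labels within genotype over 100 assignments. Of the 37 asparagine rows, 0 passed an adjusted p of 0.05 and 0 had an unadjusted p under 0.05. The shares over all 513 rows were 0% for both counts. For the asparagine rows these counts were fixed beforehand. Each of the 37 was either in all FLAG-PUS7 libraries or in no knockout library, so that only the labels of a single genotype could matter. The exact permutation test can then give no p below 0.1, and no conclusion is drawn from the 0 counts. GTT.15.1 and GTT.chr1.126 were at that lowest value (exact permutation p = 0.1, adjusted p = 1).

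The authors' peak lists gave a second readout for single genes. Lists of the 5 FLAG-PUS7 libraries were used, and the signals are the authors' values, not scaled for depth. No knockout list was set beside them, so that a peak is not measured against the background of the pull-down. The lists held 1605 and 199 peaks in H9, with median signals of 3 and 11, and 120, 85 and 39 peaks in 293T, with median signals of 20, 28 and 40. Of 23 asparagine tRNA genes and pseudogenes in RefSeq, 13 shared at least 1 base with a peak in at least 1 list. Peaks at tRNA genes of other isotypes were not counted here. It therefore cannot be said whether this or the counts of genes below are usual for tRNA genes. There were 12 and 9 such peaks in the H9 lists and 6, 7 and 3 in the 293T lists, each a bin of 200 bases. Whole genes lay inside the bin for 20 of the 37 peaks.

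TRN-GTT9-1, TRN-GTT9-2 and TRN-GTT2-4 had a peak in all 5 lists. TRN-GTT9-1 (chromosome 1, 145475381 to 145475454) had a signal of 29 and 44 in H9 and 208, 252 and 188 in 293T. In rank this was position 62 of 1605 and 22 of 199 in H9, and position 9 of 120, 8 of 85 and 8 of 39 in 293T. Its peak covered 20 of the 74 bases of the gene. TRN-GTT9-2 (chromosome 1, 148048516 to 148048589), which shares the mature sequence, had 8 and 12 in H9 and 47, 75 and 59 in 293T, lower than TRN-GTT9-1 in each list. TRN-GTT2-4 had 36 and 17 in H9 and 33, 77 and 53 in 293T. Its peak covered 37 of the 74 bases of the gene in each list, whereas that of TRN-GTT9-2 held the whole gene. With the whole gene required inside the peak, only TRN-GTT9-2 of these genes keeps its peaks.

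Peaks at TRN-GTT7-1 and TRN-GTT6-1 were found in H9 lists alone. The same held for TRN-GTT2-6, TRN-GTT2-2, TRN-GTT24-1 and TRN-GTT5-1, at signals of 4 to 9, given below. The H9 lists held 1605 and 199 peaks, against 120, 85 and 39 in 293T. The part of list length in this was not tested. TRN-GTT7-1 had 96 and 33 in H9, position 19 of 1605 and 29 of 199, and no peak in the 293T lists. The signal of TRN-GTT6-1 (chromosome 1, 143735920 to 143735993) was 264 in H9 list number 2, position 4 of 199, and no peak in the 4 other lists. In the tRNA tables all 5 FLAG-PUS7 libraries held the rows of TRN-GTT7-1 and TRN-GTT6-1, so that the lists and the tables differ on these genes. A gene missing from a list had no bin past the authors' threshold, which is not the same as no reads.

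The 8 other genes with a peak had signals of 50 or less. TRN-GTT2-1 (chromosome 1, 148529257 to 148529330) had 13 and 9 in H9 and 24 and 16 in the first and second 293T lists. TRN-GTT2-3 had 12 and 11 in H9 and 20 in the second 293T list, and TRN-GTT2-6 had 4 and 9 in H9. TRN-GTT3-1 and TRN-GTT2-7 had the same signal in 3 lists, 28 in the first H9, 9 in the first 293T and 15 in the second 293T list. In the second H9 list TRN-GTT2-7 had 50 and TRN-GTT3-1 no peak. TRN-GTT2-2, TRN-GTT24-1 and TRN-GTT5-1 had a peak in the first H9 list only, at 4, 6 and 7. Of the 15 genes matched to a row, 10 had a peak in some list. The 5 without one were TRN-GTT1-1, TRN-GTT10-1, TRN-GTT2-5, TRN-GTT4-1 and TRN-GTT8-1, the last being the 1 matched gene whose row was in every FLAG-PUS7 and no knockout library.

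**Figure D5:**
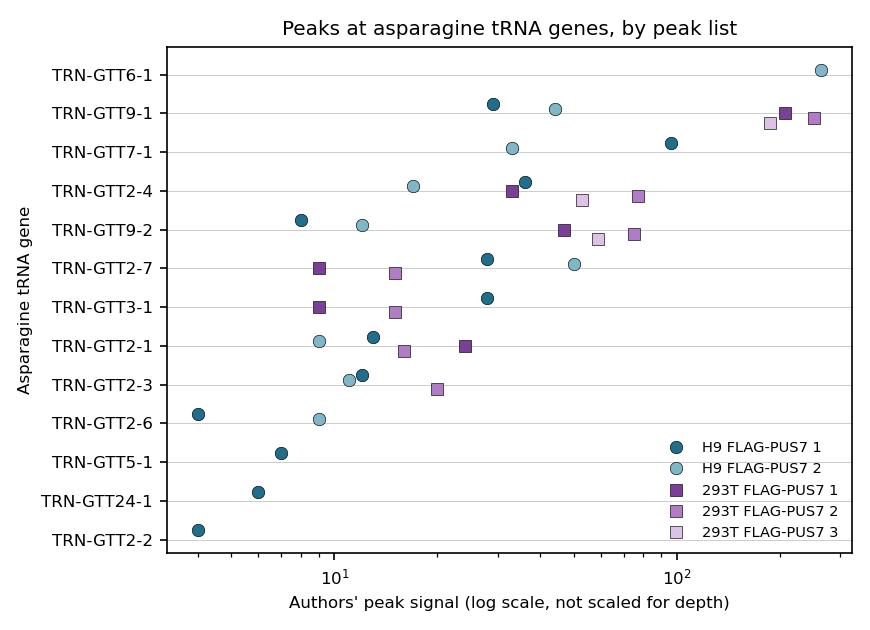
The authors' peak signal (log scale, not scaled for depth) at the 13 asparagine tRNA genes with a peak in any FLAG-PUS7 list, H9 as blue circles and 293T as purple squares, with no point where a list had no peak. TRN-GTT9-1 has 29 and 44 in H9 and 188 to 252 in 293T, while TRN-GTT7-1 and TRN-GTT6-1 have points in H9 only.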

How the data were processed

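Per the labels' protocols, UV light at 254 nm and 200 mJ/cm2 fixed PUS7 to RNA, RNase I digested the cleared lysate, anti-FLAG beads bound the complexes for 2 h at 4 °C, and a MiSeq read 50 cycles from 1 end. Reads begin with random bases; whether duplicates were collapsed is not stated. The submitters' processing notes name Bowtie, SAMtools, bedtools and hg38 with neither role nor version, and no peak caller was found in the labels. The deposited tRNA tables hold level numbers with no unit of amount, so that no count test was run. The lowest run of levels with rising class was read as no reads. Over 9 tables, several rows had the same value 381 times, and 0 of these values crossed classes. The deposited peak lists give a signal and a p-value per peak, both the authors' values. RefSeq genes (GRCh38.p14) were matched by symbol. TRN-GTT26-1, whose coordinate appears to be that of an unplaced scaffold, was left out of the peak search. Row tests were exact permutation tests in Python 3.11.15 with numpy 2.4.6, adjusted over the whole table and tested on simulated data. Members and lists were chosen with earlier results of these data known. Rows were named by their detection pattern: in every FLAG-PUS7 and no knockout library, in every knockout library with tRNA reads, in some FLAG-PUS7 libraries, or with another anticodon, and genes by having a peak. Alternatives left out each library, read only the lowest level as no reads, kept only matched rows, or paired libraries by number. No sequences of these tRNAs were used here.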

Additional observations from a re-analysis of the deposited data

How the results depend on the processing

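The row-by-row counts past an adjusted p of 0.05 were 0 under every alternative run, in both comparisons (exact permutation test). Between the lines no tested asparagine row could have an exact permutation p below 0.1 as reported, so that these counts decide nothing there. The difference in the share of asparagine rows between FLAG-PUS7 and knockout kept its direction under all alternatives, with 42.9 to 60.7 points when each library was left out, and 20.2 points when only the lowest level of each table was read as no reads, which counts every row of the wider classes as detected. The number of rows in every FLAG-PUS7 and no knockout library, and of rows at an unadjusted p under 0.05, was 5 to 7 when each library was left out, 2 with only the lowest level read as no reads, and 1 among rows matched to a RefSeq tRNA gene. The difference in effect between H9 and 293T kept its direction over the asparagine rows. It was 4.76 to 40.5 points when each library was left out, and 7.14 points with only the lowest level read as no reads. Among matched asparagine genes this difference turned sign without H9 knockout replicate 1 (-11.1 points). It also did so among all 408 matched rows (-14.3 points) and among all rows (-9.06 points). The share in FLAG-PUS7 libraries only, with no knockout subtracted, is another measure. For asparagine rows it was 9.52 points higher in H9, or 5.95 to 13.1 points when each FLAG-PUS7 library was left out. Asparagine genes with a peak numbered 8 where the whole gene had to lie inside the peak and 10 to 13 when each list was left out, an alternative chosen after seeing the data, as were the unadjusted counts, the values for all rows or matched rows without H9 knockout replicate 1, and the left-out libraries of the FLAG-PUS7 comparison. Replicate numbers are shared between groups. Over the 631 rows the deviations of same-numbered libraries had r = 0.0341 in H9, and -0.0245, 0.0369 and -0.00626 in 293T. These values cannot show whether replicates belong together. Rows seen in a knockout were nearly all in every FLAG-PUS7 library, and so had no deviation there. In H9, with 2 libraries per group, unlike-numbered pairs give the same value with the sign turned (-0.0341). With the replicate block the difference was 51.8 points and 0 rows had an unadjusted p under 0.05, since 5 pairs allow no p below 0.0625. Detection alone cannot show amounts, and depth is unknown.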
